A study of Mus musculus with 2 samples.

Results

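The choroid plexus epithelium was described in 595 cells, 288 from an E3 library and 307 from an E4 library, out of 25287 deposited cell barcodes. A barcode was a member if it held 2000 to 50000 UMIs (unique molecular identifiers, each counting 1 captured RNA molecule), at most 30% mitochondrial UMIs and at least 5 UMIs summed over Folr1, Kl, Clic6 and Kcnj13. It was left out if it reached 5 UMIs of the ependymal genes Ccdc153 and Tmem212, 5 of the microglial genes C1qa, C1qb and C1qc, 3 of the endothelial gene Cldn5, 3 of the fibroblast genes Dcn and Col1a1, or 5 of the astrocyte gene Aqp4. The members were thus chosen by these measured values, and high levels of the 4 choosing genes or low levels of the 9 excluding genes are no finding. Ttr, the best known gene of this epithelium, was not used because its RNA was found in barcodes of every class.

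The cells came from female mice of 11 to 12 months that were homozygous for human APOE3 (E3) or human APOE4 (E4) in place of mouse Apoe. Right hemispheres of 3 mice per genotype, without brainstem and cerebellum, were pooled and dissociated warm with enzymes, and 1 droplet library of 3′ ends was made from each pool. As each genotype is represented by 1 library, genotype could not be tested. A difference between E3 and E4 below compares those libraries, and the genotype, the pool of mice, the preparation of the library and the Cell Ranger version cannot be told apart.

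The choroid plexus hangs in the ventricles of the brain and consists of a single layer of epithelial cells around a core of fibroblasts and fenestrated vessels. Its epithelium secretes most of the cerebrospinal fluid by moving ions and water from blood to ventricle, forms the barrier between them with tight junctions, and releases carrier proteins and growth factors into the fluid. It is rich in mitochondria, takes up folate from the blood through Folr1, and makes transthyretin (Ttr), the carrier of thyroid hormone and retinol in the fluid.

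The members were 3.23% of the 8925 E3 barcodes within the UMI and mitochondrial limits (exact binomial 95% interval 2.87 to 3.61) and 2.81% of the 10942 E4 barcodes (2.50 to 3.13). All intervals given here cover counting error only, and the shares depend on how well the tissue came apart. The members held 3994830 of 56415229 UMIs of the E3 library and 4937322 of 71625170 UMIs of the E4 library. UMIs per member ran from 2025 over a median of 11025.5 to 46805 in E3 and from 2236 over 13063 to 49742 in E4, against medians of 4311 and 4564 in the other barcodes within the limits. The median member showed 2505.5 genes in E3 and 2752 in E4, and mitochondrial UMIs made up a median of 6.67% and 7.86%. The libraries shared 46 barcode sequences in all, none of them among the members.

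The 4 choosing genes were present by construction. Folr1, the folate receptor of the epithelium, had a UMI in 98.6% of E3 and 97.7% of E4 members. Kl, which encodes the hormone co-receptor klotho, was seen in 94.1% and 95.1%, the chloride channel gene Clic6 in 88.2% and 88.3%, and the potassium channel gene Kcnj13 in 92.0% and 95.4%. Between 0.604% and 1.37% of microglia and macrophages, at a median of 3871.5 UMIs in E3 and 4383 in E4, held a UMI of any one of these 4 genes. The check of the class name rests on Ttr, which did not choose the members and made up a median of 24.3% of all UMIs of an E3 member (range 0.789 to 56.6) and 24.1% of an E4 member (1.25 to 54.0), against 0.0373% and 0.0409% in barcodes with no UMI of the 4 genes. Of the members, 92.4% in E3 and 93.2% in E4 held at least 8% Ttr, while 3 and 6 members held under 2%. A UMI of Ttr was also found in 84.9% of E3 and 89.0% of E4 microglia and macrophages, so the presence of Ttr alone marked no class, but its share of UMIs did.

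Just inside the limit, at exactly 5 UMIs of the 4 genes, lay 12 E3 and 10 E4 barcodes with a median of 18.6% and 10.4% Ttr. Just outside, at 4 UMIs, lay 6 and 8 barcodes with 7.99% and 15.1% Ttr. The limits for other cell types left out 101 E3 and 86 E4 barcodes that had reached the limit of the 4 genes. Among these, 49 and 35 reached the ependymal limit, 52 and 41 the astrocyte limit, 33 and 38 the microglial limit, 12 and 12 the endothelial limit and 5 and 2 the fibroblast limit. No doublet caller was run, so droplets that held a choroid plexus cell with part of another cell were removed only as far as these limits reach.

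Levels are given as CPM, the UMIs of a gene per 1000000 UMIs of the class, after the UMIs of all members of a library had been summed. Among 3972 genes with at least 200 UMIs over both libraries, 124 (3.12%) were at least 8-fold higher in CPM in the members than in all other barcodes within the limits, in both libraries. As the members were chosen by 4 of these genes, this is a description of the class and not a test. The other barcodes included the 101 E3 and 86 E4 barcodes that reached both the limit of the 4 genes and another limit. Without the clusters 1 and 3 described below, 62 genes passed. In that setting the members of these clusters counted among the other barcodes, which by itself lowers the ratios, and fewer genes reached 200 UMIs.

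Ranked by the lower of the ratios in the 2 libraries, Prr32 came first, although 4930447N08Rik had 71.4 times in E3 and Snhg7os, named after its values were seen, 67.7 times in E4. Prr32, which encodes a small protein of unclear function, stood at 229 CPM in E3 and 232 in E4, 59.3 and 65.8 times the other barcodes. Kcne2, the subunit that joins the potassium channels of the apical membrane, stood at 347 and 317 CPM and 48.1 and 48.5 times. Prcd, known from photoreceptor discs, was 50.4 and 62.9 times higher, and Ins2, an insulin gene that the choroid plexus is known to transcribe, 47.2 and 46.6 times. Thus the genes that set the epithelium apart most sharply included ones of quite different level.

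Ttr was 42.1 times higher than in the other barcodes in E3 and 50.7 times in E4, at 241379 and 244173 CPM. In the 5 reference classes, whose barcodes reach 1 limit only, Ttr stood between 303 and 587 CPM. In all other barcodes it stood at 5729 CPM in E3 and 4812 in E4, so the ratios to them are smaller than those to the reference classes. Kcnj13 was 39.2 and 46.9 times higher, Kl 39.3 and 36.2 times and Folr1 31.2 and 42.0 times, as the rule fixed. Cldn3, a claudin of the tight junction, was 38.3 and 54.7 times higher at only 29.0 and 29.2 CPM. The lactate and monocarboxylate transporter gene of retina and choroid plexus, Slc16a8, was 37.6 and 52.8 times higher, and the prolactin receptor gene Prlr 33.8 and 36.1 times. Car12, a carbonic anhydrase that supplies bicarbonate, was 32.8 and 36.5 times higher, and Aqp1, the water channel of the apical membrane, 31.7 and 34.6 times.

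**Figure D1:**
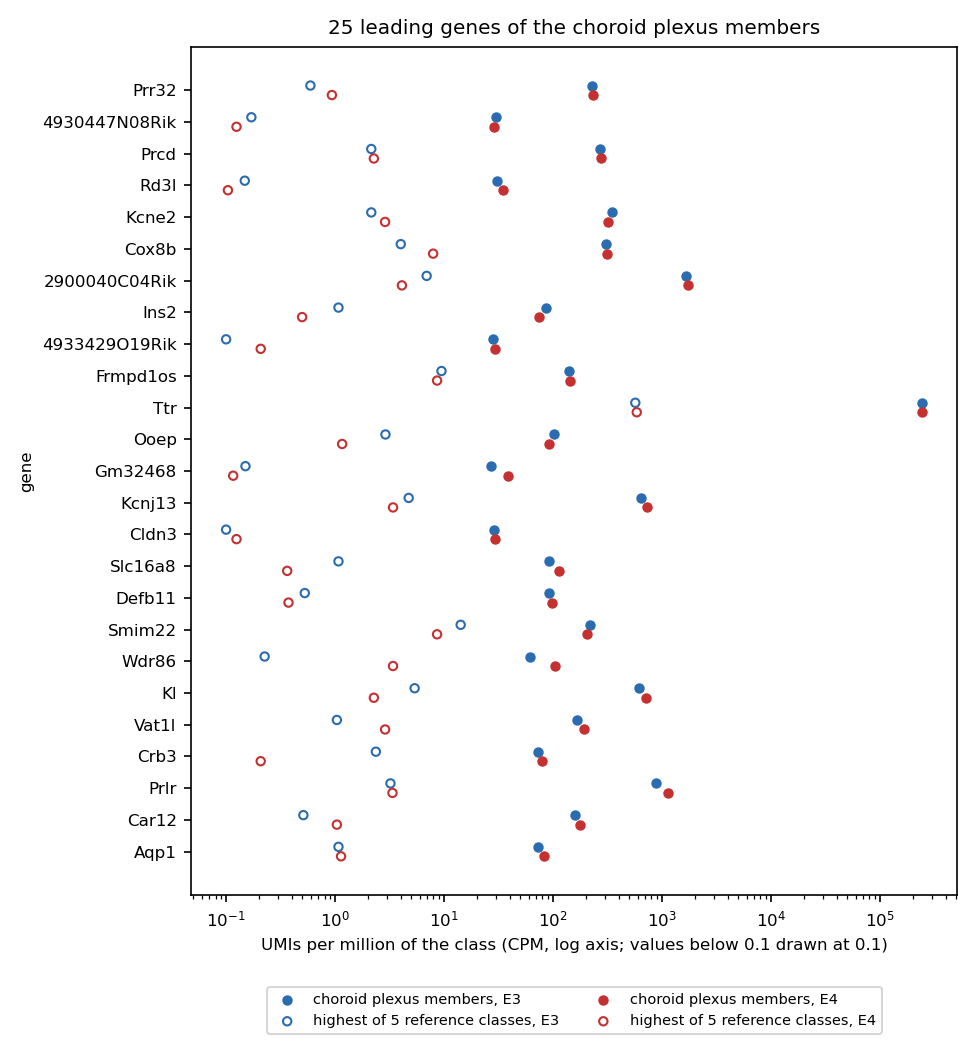
The level of each of the 25 leading genes is plotted in CPM on a log axis (values below 0.1 drawn at 0.1), with filled points for the members and open points for the highest of the 5 reference classes, E3 in blue and E4 in red. For each gene the filled points lie far to the right of the open ones and close to each other, with the widest gap between the libraries for Wdr86 at 62.1 and 105 CPM.

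Among the secreted products other than Ttr, Enpp2, which encodes the secreted lysophospholipase D autotaxin, stood at 11019 CPM in E3 and 12169 in E4, 20.6 and 23.8 times the other barcodes. Ecrg4, which encodes a secreted peptide precursor of the epithelium, stood at 3266 and 3364 CPM. Igfbp2, which binds insulin-like growth factors, stood at 1338 and 1490 CPM, and Sostdc1, a secreted antagonist of BMP and Wnt signals, at 1006 and 1103 CPM. Trf (transferrin) was lower than in the other barcodes, at 0.399 times in E3 and 0.266 times in E4.

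The machinery of fluid secretion was present in both libraries, with 31 of the genes listed for ion transport at or over 200 UMIs, 9 of them at least 8-fold over the other barcodes. The sodium pump gene Atp1b1 was 4.74 times the other barcodes in E3 and 5.98 times in E4. Slc4a5, which moves sodium with bicarbonate, was 31.1 and 29.2 times higher, whereas the cotransporter gene Slc12a2 was 1.92 and 2.01 times higher. The serotonin receptor gene Htr2c, long known for its density on this epithelium, was 37.6 and 31.2 times higher.

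The glucose transporter gene of the blood-brain barrier, Slc2a1, stood at 28.8 CPM in E3 and 31.0 in E4, 0.107 and 0.0842 times the other barcodes. Tight junction genes were those of a secretory epithelium, with Cldn2 at 128 and 103 CPM, and with Krt18, a keratin of simple epithelia, at 316 and 291 CPM. The transcription factor genes Otx2, needed for the formation of the choroid plexus, and Msx1 stood at 229 and 251 CPM and at 199 and 226 CPM, 13.6 and 15.4 and 8.86 and 11.7 times the other barcodes. All 17 Hox genes listed, which are known to mark the choroid plexus of the hindbrain, had 0 UMIs in both libraries, which allows up to 3 UMIs per library for each. The brainstem and cerebellum had been cut away before dissociation.

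The 47 listed genes of motile cilia found in the files summed to 2037 CPM in E3 and 2027 in E4. Nuclear genes of oxidative phosphorylation summed to 77647 CPM in E3 and 73378 in E4 over the 83 found in the files, 3.42 and 3.63 times their sum in the other barcodes. Cox8a stood at 4228 and 4132 CPM and Atp5g1, a subunit of the ATP synthase, at 2993 and 2859 CPM, which for Atp5g1 was 10.1 and 10.8 times the other barcodes. The immediate-early genes, which warm dissociation is known to raise, summed to 407 CPM in E3 and 421 in E4, 0.0663 and 0.0529 times their sum in the other barcodes.

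Markers of other cell types were low in the summed members, some of them because the rule kept them low. In E3 and E4 their sums were 108 and 121 CPM for microglia, 98.4 and 118 for endothelium, 40.3 and 60.2 for mural cells, 606 and 547 for astrocytes, 506 and 604 for oligodendrocytes and 30.8 and 28.0 for neurons. Fibroblast markers summed to 509 and 429 CPM, with Igf2, which the epithelium itself is known to make, among them. Ependymal markers summed to 1056 and 1040 CPM, 1.29 and 1.79 times the other barcodes, and erythroid genes to 274 and 23.9 CPM.

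Promoters of the leading genes were searched for TAATCC and its other strand GGATTA, the core of sites bound by OTX2. The letters stood in 4 of 52 promoters (7.69%) of the 42 genes found among the 50 leading genes, and in 7.06% of all 32851 promoters of the same 300 bases, 250 before and 50 after the start of the transcript. The share in the leading genes was close to that in all promoters. The 4 windows are shown so that the letters can be seen in place. They are from RefSeq on GRCm38.p6 and run 5′ to 3′ on the strand of the gene, with the searched letters in capitals. They lie at chr4:138819348-138819377 on the minus strand for Pla2g5, chr8:114205549-114205578 on the plus strand for Vat1l, chr11:116657096-116657125 on the plus strand for Prcd and chr17:46729182-46729211 on the minus strand for Gnmt.
Pla2g5: gtcagggctaagGGATTAtcgaaggcttct
Vat1l: cggctcctctaaGGATTAcggcggaggcgg
Prcd: gcttgaacgtccTAATCCcttcccaggaac
Gnmt: tgccttgccagaGGATTAtaagtgcggatc

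Members differed most among themselves in how much Ttr they held. After each member was thinned to 2000 UMIs, the ratio of variance to mean over members was 94.1 in E3 and 82.3 in E4 for Ttr, against a median of 1.08 in both libraries over 1852 genes with a mean of at least 0.1 UMIs. Malat1, a nuclear non-coding RNA, followed with 58.2 and 56.7, and Enpp2 reached 9.18 and 7.96. Among the 15 genes with the highest ratios, 8 were mitochondrially encoded, among them mt-Co3 at 11.0 and 10.0 and mt-Atp6 at 10.7 and 10.4.

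Clustering of the members gave 5 groups, each with members of both libraries. Cluster 1, of 27 members, had Gria2, Ntm and the astrocyte gene Gja1 among its leading genes. Cluster 3, of 116 members, had a median of 30794 UMIs. It was led by Ddr2, Kcnq1ot1 and Amer1 at 35.9, 35.6 and 31.4 times the other members. The myelin genes Mag and Mal were also among its leading genes. Of the clusters it had the highest Kl level, at 968 CPM in E3 and 1040 in E4, whereas Folr1 was highest in cluster 5. Cluster 2, of 188 members, had no gene above 2.23 times the other members. Clusters 4 and 5 lay apart in Ttr and mitochondrial share. Cluster 4, of 171 members, held a median of 15.7% Ttr and 4.11% mitochondrial UMIs and was led by Ifi27l2a at 3.45 times the other members, together with the cilium and sperm tail genes Morn5 and Spa17. Cluster 5, of 93 members, held 33.6% Ttr and 9.65% mitochondrial UMIs at a median of 7041 UMIs. It was led by the myelin genes Mobp and Mbp at 2.60 and 2.46 times the other members. These groups describe the members and were given no cell type names.

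**Figure D2:**
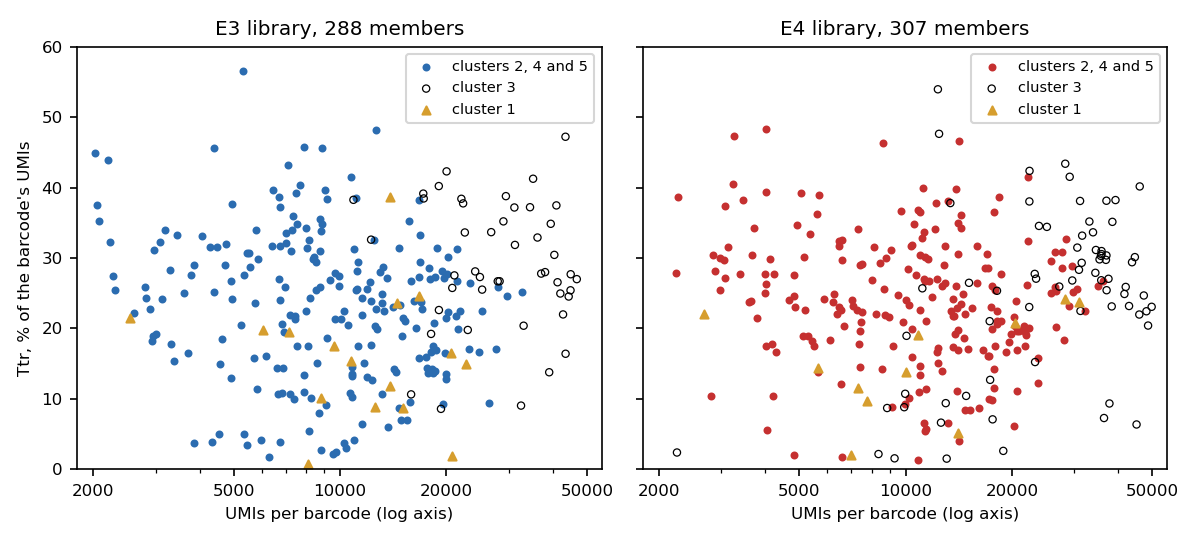
Each point is 1 member, placed by its total UMIs on a log axis and by the percent of its UMIs that were Ttr, in 1 panel per library, with open circles for cluster 3 and triangles for cluster 1. In both libraries the members spread over the whole range from about 1% to above 50% Ttr, and cluster 3 lies mostly at the right, where UMIs per barcode are high.

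E4 and E3 members were close over most genes. The median log2 ratio of E4 to E3 over the 3972 genes was 0.03, with the 5th and 95th percentiles at -0.25 and 0.34. Of these genes, 2323 (58.5%) were higher in the E4 library by any amount. At least 1.5-fold higher were 25 genes (0.629%), and at least 1.5-fold lower were 22 (0.554%). Ttr itself had a log2 ratio of 0.02. Clic6, Folr1, Kcnj13 and Kl had log2 ratios from 0.05 to 0.21, the highest that of Kl at 0.21 (95% interval 0.13 to 0.28). As these genes chose the members, their ratios depend on the rule. Within the clusters Kl lay at 0.08, 0.22, 0.10, -0.09 and 0.02 from cluster 1 to 5.

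**Figure D3:**
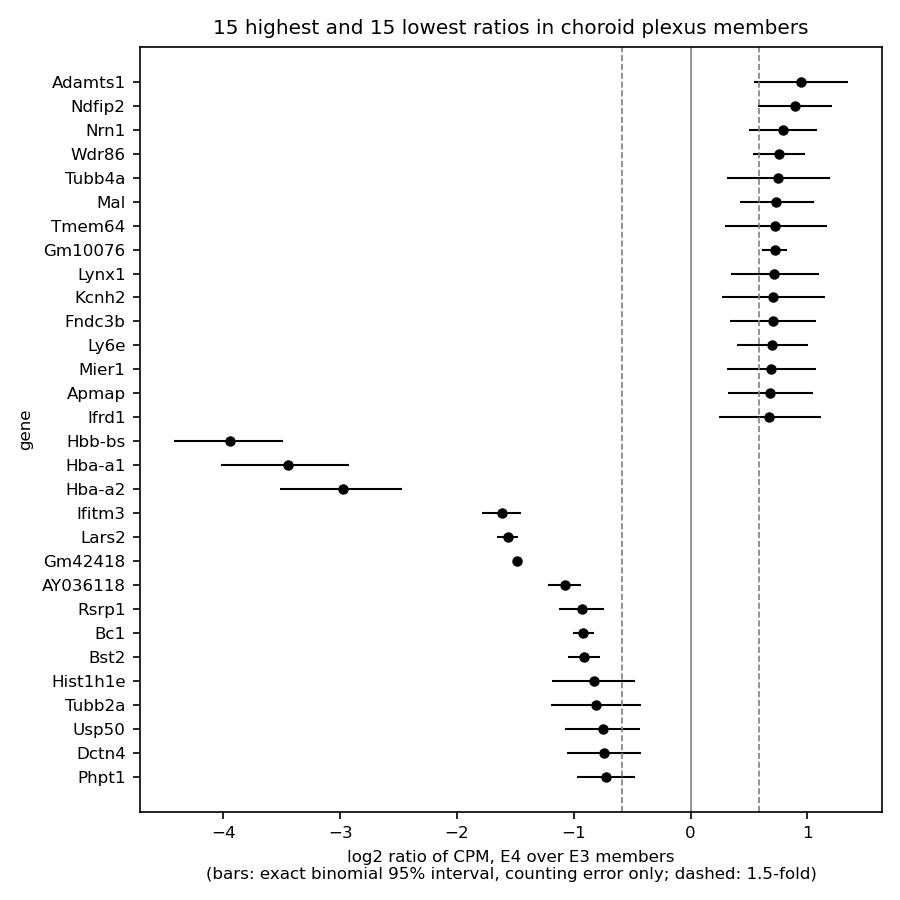
The log2 ratio of E4 to E3 is plotted for the 15 genes with the highest and the 15 with the lowest ratio in the members, with bars for the exact 95% interval of counting error and dashed lines at 1.5-fold. The haemoglobin genes lie farthest from 0 at -3.94 to -2.98, followed by Ifitm3 at -1.62, while the highest ratio is that of Adamts1 at 0.94.

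Among genes known as targets of interferon, 3 of the 6 that reached 200 UMIs were at least 1.5-fold lower in the E4 members and none of the list was as much higher, beside 0.554% of all genes as much lower. Ly6e, also known as an interferon-induced gene but not on the list, was at least 1.5-fold higher in E4, at 34.8 and 56.5 CPM (log2 ratio 0.70). Ifitm3, which encodes a membrane protein that blocks the entry of viruses (ENSMUSG00000025492, protein coding, chr7:141009586-141010770 on GRCm38), stood at 260 CPM in E3 (95% interval 244 to 276) and at 84.7 in E4 (76.7 to 93.2). The E4 level was 3.07-fold lower, a log2 ratio of -1.62 (-1.79 to -1.45). Over members, Ifitm3 had a median of 119 CPM and a highest value of 2389 in E3, and a median of 30.2 and a highest value of 2508 in E4, with members at 0 in both libraries. The ranges overlapped throughout, and the libraries differed in how many members held the gene, since a UMI was found in 33.0% of E3 and 14.0% of E4 members after thinning to 2000 UMIs.

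Bst2, which encodes tetherin, a protein that holds budding viruses on the cell surface (ENSMUSG00000046718, protein coding, chr8:71534255-71537456), stood at 260 CPM in E3 and 138 in E4. That was 1.88-fold lower in E4, a log2 ratio of -0.91 (-1.05 to -0.77), and its UMIs were found in 33.3% and 22.1% of thinned members. Ifi27, an interferon-induced gene of mitochondria and nuclear envelope (ENSMUSG00000064215, protein coding, chr12:103434211-103440239), stood at 1589 CPM in E3 and 1041 in E4, 1.53-fold lower (log2 ratio -0.61, -0.66 to -0.56). Ifi27 was a gene of the class as a whole, at 8.64 and 6.56 times the other barcodes, and after thinning 90.6% of E3 and 83.7% of E4 members held a UMI. Ifi27 lay close to the limit of 1.5-fold. It was under it within each of the 5 clusters, and also when the limits for other cell types were not applied (-0.51) or no upper UMI limit was set (-0.58). Its level was highest in cluster 4, at 2487 CPM in E3 and 1720 in E4, and that cluster held 34.7% of E3 and 23.1% of E4 members.

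The 3 other measured genes of the list were less than 1.5-fold apart. Ifitm2, the neighbour and close relative of Ifitm3, stood at 140 and 138 CPM (log2 ratio -0.03, -0.19 to 0.14). Ifi27l2a stood at 68.1 and 69.1 CPM (log2 ratio 0.02), though 57.5% of its E4 UMIs and 27.6% of its E3 UMIs lay in 5 members each, and without these the log2 ratio was -0.76. Lgals3bp, a secreted glycoprotein gene, stood at 69.8 and 59.6 CPM (log2 ratio -0.23, -0.47 to 0.01). Of the 6 measured genes 5 were lower in E4, beside 41.5% of all genes, with a median log2 ratio of -0.42 beside 0.03. With a floor of 50 UMIs in place of 200, 13 of 14 were lower, beside 43.1% of all 8272 genes at that floor. Gbp3, an interferon-induced GTPase gene that lay below the floor and was chosen after its values were seen, had 35 UMIs in E3 members and 1 in E4 members (log2 ratio -5.43, -10.78 to -2.86).

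Ifitm3 was lower in E4 within each of the 5 clusters, with log2 ratios of -1.88, -2.13, -1.08, -1.30 and -1.70 from cluster 1 to 5. Bst2 was lower in each as well, at -1.64, -0.98, -1.06, -0.41 and -1.14. Ifi27 lay at -0.37, -0.56, -0.44, -0.53 and -0.20, with an interval that included 0 in cluster 5. Other genes of the list went differently. Ifi27l2a had -3.42 on 15 and 1 UMIs, -1.40, 0.09, 1.03 (0.68 to 1.39) and 1.77 from cluster 1 to 5, and Ifitm2 was higher in E4 in all clusters but cluster 2, where it had -0.28, with intervals that included 0 in each.

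Ifitm3 was found in 45.8% of thinned E3 members with Bst2 and in 26.6% of those without, and in 19.1% and 12.6% in E4. It was found in 48.4% of E3 members with Ifi27l2a and in 31.1% of those without, and in 35.3% and 12.8% in E4. Bst2 was found in 45.2% of E3 members with Ifi27l2a and in 31.9% of those without, whereas in E4 it was found in 17.6% of the 17 members with Ifi27l2a and in 22.4% of those without. Bst2 and Ifi27l2a in E4 were thus the only pair and library in which the genes did not occur together more often.

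Other cell classes of the same libraries were set beside these values. Ifitm3 was most abundant in endothelial cells, at 1116 CPM in E3 and 1091 in E4, and stood at 883 and 409 CPM in ependymal cells. Microglia and macrophages had log2 ratios of -0.03, 0.00 and -0.05 for Ifitm3, Bst2 and Ifi27, and endothelial cells -0.03, -0.11 and -0.10. Fibroblasts, of which there were 72 in E3 and 68 in E4, had 0.22, 0.61 and 0.20. Ependymal cells, with 56 and 52 barcodes, had -1.11, -1.92 and -1.78, although Bst2 rested there on 23 and 5 UMIs. Astrocytes had -0.99, -0.28 and 0.13. The median over the interferon list was 0.05 in endothelial cells with 30 measured genes, 0.07 in microglia and macrophages with 23, -0.16 in astrocytes with 8, 0.20 in fibroblasts with 5 and -1.44 in ependymal cells with 2. Whether these classes differ from the choroid plexus beyond the spread between animals was not tested.

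**Figure D4:**
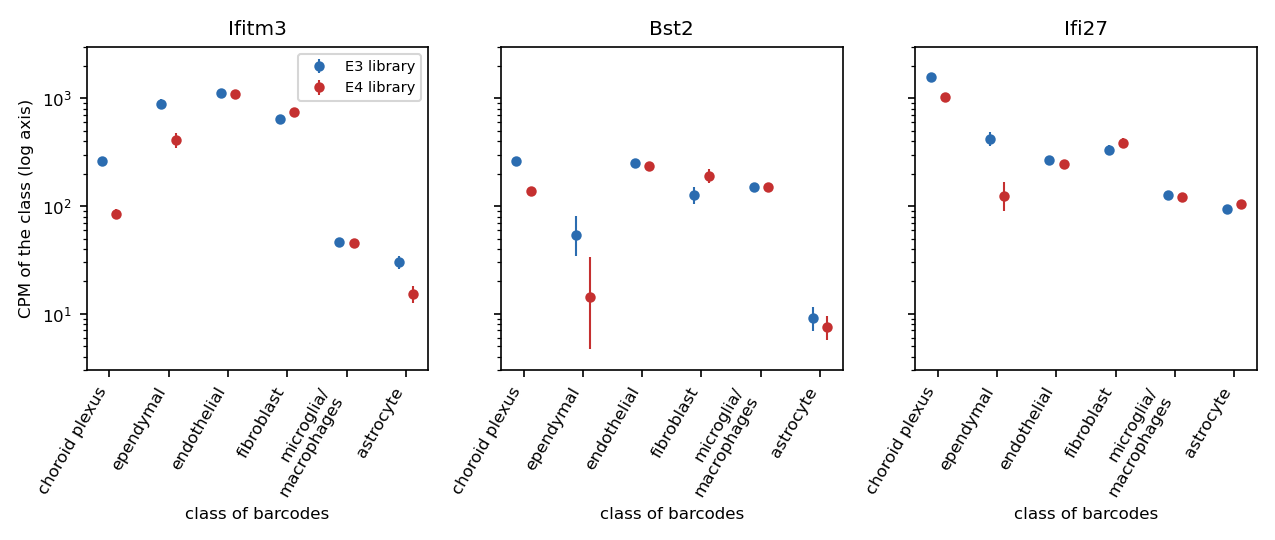
The levels of Ifitm3, Bst2 and Ifi27 are plotted in CPM on a log axis for the choroid plexus members and 5 reference classes, E3 in blue and E4 in red, with bars for the exact 95% interval of counting error. The E4 point lies below the E3 point for all 3 genes in choroid plexus and ependymal cells, and the points lie side by side in endothelial cells and in microglia and macrophages.

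The core of the interferon-stimulated response element, GAAA, any 2 bases and GAAA again (TTTC, any 2 bases and TTTC on the other strand), was searched in the promoters of the list after these ratios were seen. It stood in 15 of 29 promoters (51.7%) of the 25 genes found among the 32 listed, and in 3.44% of all 32851 promoters. The list was drawn up from known targets of interferon, so this share describes the list and not the E4 members. Windows are shown for Ifitm3 and Bst2, which were lower in E4, and for Ifitm2, which was nearly level. They are from RefSeq on GRCm38.p6, 5′ to 3′ on the minus strand, on which all 3 genes lie, with the searched letters in capitals. They lie at chr7:141010723-141010752 and chr7:141010706-141010735 for Ifitm3, chr8:71537583-71537612 for Bst2 and chr7:140955988-140956017 for Ifitm2.
Ifitm3, first: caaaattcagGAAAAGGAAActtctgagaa
Ifitm3, second: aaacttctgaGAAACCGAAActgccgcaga
Bst2: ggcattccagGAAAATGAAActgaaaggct
Ifitm2: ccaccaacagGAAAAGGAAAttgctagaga
The first letter of the motif lay 2 and 19 bases after the start of the transcript in Ifitm3, 130 before it in Bst2 and 46 before it in Ifitm2. The 10 capital letters of the first Ifitm3 window and of the Ifitm2 window were identical, while the ratios of E4 to E3 were -1.62 and -0.03 on the log2 scale. The promoters of Ifi27 and Ifi27l2a were not searched.

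Of the genes higher in E4 among those with at least 200 UMIs, Adamts1 had the largest ratio. It encodes a secreted protease of the extracellular matrix, and stood at 18.8 CPM in E3 and 36.1 in E4 on 75 and 178 UMIs, a log2 ratio of 0.94 (0.54 to 1.35). Most of its UMIs, 55 in E3 and 135 in E4, lay in cluster 3, which held 46 of 288 E3 and 70 of 307 E4 members, and within that cluster the log2 ratio was 0.77 (0.30 to 1.25). Ndfip2, an adaptor of ubiquitin ligases, had a log2 ratio of 0.89 (0.58 to 1.21), and Nrn1, a neurite growth factor gene, stood at 37.3 and 64.4 CPM (0.79, 0.50 to 1.08). Nrn1 was lower in E4 in microglia and macrophages at -0.87 and in astrocytes at -0.35, and Adamts1 lay between -0.33 and 0.45 in the 5 reference classes.

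Wdr86, a gene of WD repeats, was both one of the 25 leading genes of the class and higher in E4. It stood at 62.1 CPM in E3 and 105 in E4, a log2 ratio of 0.76 (0.54 to 0.98), and was found in 45.5% of E3 and 69.7% of E4 members, or in 6.60% and 17.3% after thinning. The other 24 leading genes were less than 1.5-fold apart between the libraries. Further genes at least 1.5-fold higher included Tmem64 (0.73), Kcnh2 (0.71), Fndc3b (0.70), Ly6e (0.70), Mier1 (0.69), Apmap (0.68) and Ifrd1 (0.67), all as log2 ratios. Gm10076, a gene model named as a pseudogene of a ribosomal protein whose reads may belong to other copies, had 0.72 here and 0.18 to 0.49 in the 5 reference classes.

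Some of the genes higher in E4 rested on few cells. The myelin gene Mal (0.73) had 81.7% of its E3 UMIs and 80.3% of its E4 UMIs in 5 members each, and Tubb4a (0.75), a tubulin gene of oligodendrocytes, had 69.7% and 71.5%. Mal was also among the leading genes of cluster 3. Without clusters 1 and 3, 14 genes rather than 25 were at least 1.5-fold higher in E4. Fewer genes reached the UMI floor in that setting, which by itself lowers the count. Of the 47 genes at least 1.5-fold apart either way over all members, 23 had a value there. Of these 23 genes, 21 stayed at least 1.5-fold apart, 2 were weaker and 0 changed sign.

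The genes farthest down in E4 were the haemoglobin genes. Hbb-bs had 534 UMIs in E3 members and 43 in E4 members (log2 ratio -3.94, -4.42 to -3.49), but 5 of the 288 E3 members held 80.1% of its E3 UMIs, and without the 5 highest members of each library the log2 ratio was -2.03. Hba-a1 and Hba-a2, near-identical copies whose reads may not be told apart, had -3.45 and -2.98. These genes belong to red blood cells, and Hbb-bs was also lower in E4 in the other barcodes that reached none of the limits, at -0.86, and in endothelial cells at -1.01, whereas it was higher in E4 in astrocytes at 0.64. Erythroid genes summed to 274 CPM in E3 members and 23.9 in E4 members, and the part of red cells or their RNA in these values was not tested.

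Genes that overlap ribosomal RNA were lower in E4 in the members and in the 5 reference classes. Gm42418, a long non-coding gene model that holds ribosomal RNA sequence (chr17:39846958-39848788), stood at 16155 CPM in E3 and 5760 in E4, a log2 ratio of -1.49 (-1.51 to -1.47), and lay from -1.16 in endothelial cells to -1.27 in fibroblasts among 4 of the 5 reference classes, with a smaller difference in ependymal cells. AY036118 (-1.08) and Lars2 (-1.56), both of which carry similar sequence, were lower too. Bc1, a neuronal non-coding RNA, had -0.92 in the members and -0.54 to -1.74 in the reference classes. These genes thus differed between the libraries as a whole and not in the choroid plexus alone.

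Further genes at least 1.5-fold lower in E4 were Rsrp1 (-0.93), a splicing-related gene that was lower in each of the 5 reference classes by less, the linker histone gene Hist1h1e (-0.83), Tubb2a (-0.81), Usp50 (-0.75), Dctn4 (-0.74) and Phpt1 (-0.72), all as log2 ratios. Phpt1 and Hist1h1e were also lower in E4 in each of the 5 reference classes. Phpt1 stood at 24.1 and 11.4 CPM in endothelial cells, and Hist1h1e at 521 and 284 CPM in microglia and macrophages. Tubb2a, Usp50 and Dctn4 were higher in E4 in some of these classes and lower in others. The glial gene S100b (-0.68) and the fatty acid binding protein gene Fabp5 (-0.65) were picked from the 22 lower genes after their values were seen. S100b lay at -0.26 without the 5 highest members of each library. The mitochondrial gene mt-Atp8 stood at 467 and 288 CPM (-0.70, -0.80 to -0.60), with -0.20 to -0.75 in the reference classes.

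Genes of oxidative phosphorylation encoded in the nucleus were mostly lower in the E4 library by small amounts. Of 81 measured, 63 lay below E3 and 18 above, beside 41.5% of all genes that were lower. Their median log2 ratio was -0.06 beside 0.03 over all genes, and none was 1.5-fold apart. Without the limits for other cell types 39 of the 81 were lower and the median was 0.0046, so the direction turned in that setting. Cox6c had -0.15 (-0.18 to -0.11) and Cox7c -0.17 (-0.21 to -0.12). The median of the same list ran from -0.14 in astrocytes to -0.06 in ependymal cells, so the small shift was also seen outside the choroid plexus. The 13 mitochondrially encoded genes had a median of 0.09, with 7 higher and 6 lower, from mt-Co1 at 0.24 (0.22 to 0.26) to mt-Atp8 at -0.70.

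Lists that describe the work of the epithelium had medians somewhat above that of all genes. Of 36 measured genes known for this epithelium, 24 were higher in E4 and 12 lower (median log2 ratio 0.13). Of 27 secreted proteins 21 were higher (0.13), of 21 solute carriers and efflux pumps 16 (0.14), of 14 hormone and neuropeptide receptors 11 (0.19), of 31 genes of ion transport 22 (0.06) and of 14 genes of junctions and polarity 10 (0.10). These shares stand beside 58.5% of all genes, and the lists overlap one another. Kcnj13, which helped to choose the members, is in the list of this epithelium, and Kcnj13 and Clic6 are in that of ion transport. Over the alternative settings, the lowest medians were -0.02 for secreted proteins, -0.003 for receptors and -0.03 for junctions. They were 0.05 for the list of this epithelium, 0.03 for ion transport and 0.04 for solute carriers.

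Within these lists Prlr stood at 889 and 1133 CPM (log2 ratio 0.35, 0.29 to 0.41), Slc16a8 at 91.1 and 114 (0.33, 0.14 to 0.52) and Enpp2 at a log2 ratio of 0.14 (0.13 to 0.16). Atp1b1 had 0.15 (0.08 to 0.22) and Sostdc1 0.13 (0.07 to 0.19). Against this direction, Igf2, a growth factor that the epithelium releases into the fluid, stood at 461 and 372 CPM (-0.31, -0.40 to -0.21). Trf, the iron carrier transferrin, stood at 308 and 209 CPM (-0.55, -0.68 to -0.43), and Cldn2 at 128 and 103 CPM (-0.31, -0.49 to -0.13). Kcne2 had -0.13 (-0.24 to -0.03). None of these genes reached 1.5-fold over all members. Within the clusters, Trf had log2 ratios of -0.78, -1.09 (-1.32 to -0.86), -0.38, -0.07 and -1.10 (-1.51 to -0.68) from cluster 1 to 5. Trf is also made by oligodendrocytes, whose markers summed to 506 CPM in E3 and 604 in E4, and their part in these values was not tested.

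Genes that handle lipoproteins and amyloid were read because APOE bears on both. The mice carry human APOE, and the counts were made on the mouse genome, where Apoe had 91 UMIs in E3 and 116 in E4 members, or 22.8 and 23.5 CPM (log2 ratio 0.04, -0.36 to 0.46). That was 0.257 and 0.239 times the level in the other barcodes, and it gives no measure of human APOE. Beside the 58.5% of all genes that were higher in E4, of 16 measured apolipoproteins and lipoprotein receptors 11 were higher (median 0.06), and of 16 genes of amyloid handling 14 (median 0.12), among them App at 0.05, Aplp2 at 0.20 and Itm2b at 0.13. Iron and copper genes had a median of 0.10 over 18, of which 12 were higher. The metal-binding gene Mt1 was lower in E4, at 443 and 331 CPM (-0.42, -0.52 to -0.32).

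Of 17 genes of glycolysis 13 were higher (median 0.08), and of 23 of the citrate cycle 18 (0.06). Antioxidant genes split into 16 higher and 12 lower (0.00), with Sod3, a secreted superoxide dismutase gene, just past 1.5-fold at 0.59, and heat shock genes into 11 and 5 (0.04). Antigen presentation had 5 higher and 3 lower (0.05), with Calr, a chaperone of the endoplasmic reticulum, at 551 and 730 CPM (0.40, 0.33 to 0.48) and B2m at 63.3 and 63.8. Thyroid hormone and retinoid genes had 7 higher of 10 (0.14), folate genes 5 of 8 (0.11), klotho and insulin-like growth factor genes 6 of 8 (0.18) and patterning transcription factors 6 of 9 (0.13). The folate list holds Folr1 and the klotho list holds Kl, both of which helped to choose the members. The interferon list stood lowest among these lists at -0.42.

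**Figure D5:**
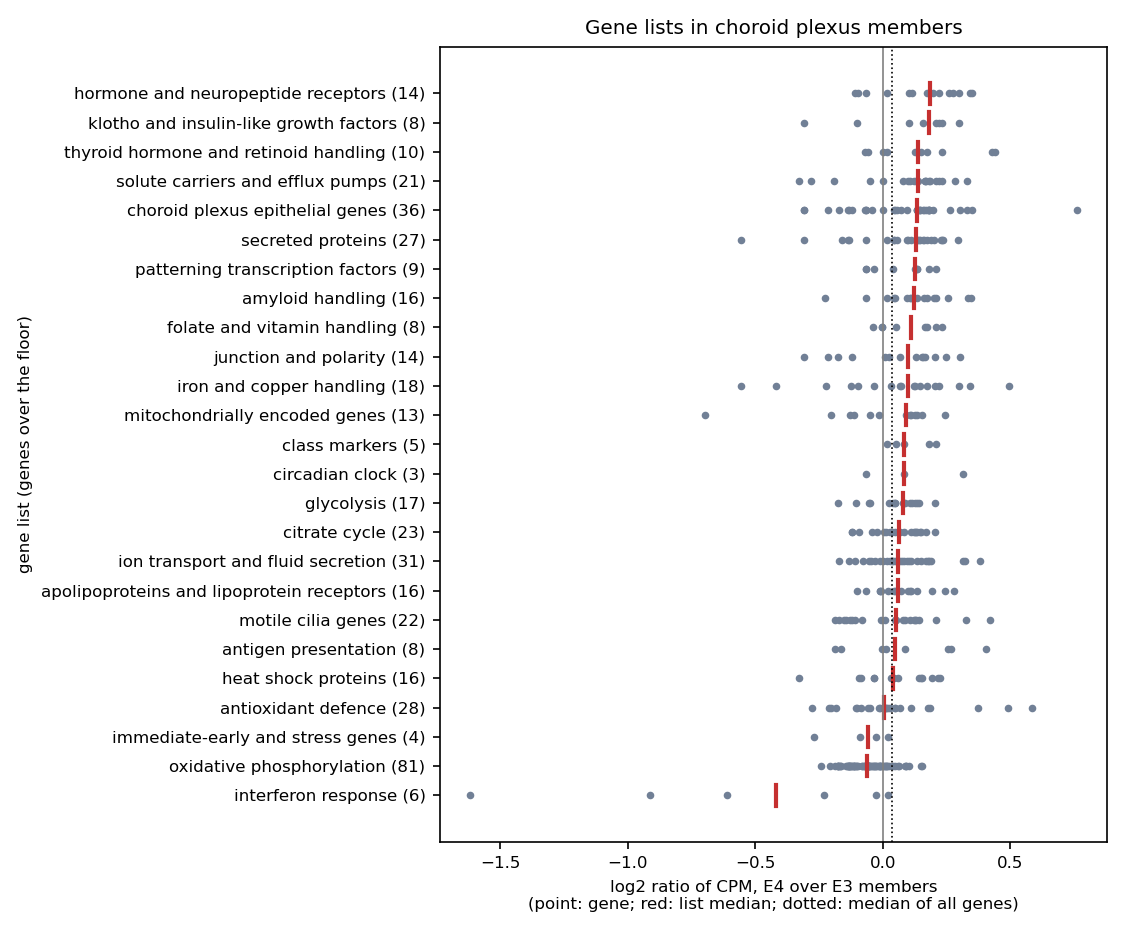
Each row is a gene list with its number of measured genes, each grey point is the log2 ratio of E4 to E3 of 1 gene in the members, each red bar is the median of the list and the dotted line is the median of all genes at 0.03. The interferon list has the lowest of the plotted medians at -0.42, and the others lie between -0.06 and 0.19.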

How the data were processed

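Right hemispheres of 3 mice per genotype were measured as 1 droplet library each. The authors deposited raw UMI counts per gene and barcode, made with Cell Ranger 6.1.2 (E3) and 6.1.1 (E4) on mm10, with no normalization. The gene annotation used is not given in the sources used here. The study's own cell labels were not used here.

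From these counts, UMIs of the members were summed per library and scaled to CPM. Levels have exact Poisson intervals, shares exact Clopper-Pearson intervals and ratios of E4 to E3 exact intervals from the binomial split, all at 95%. They cover counting error alone. No test was run and no p-value computed, since each genotype has 1 library. Genes needed 200 UMIs over both libraries, and 1.5-fold either way was counted. Reference classes were barcodes that reached exactly 1 of the 6 limits. Thinning drew 2000 UMIs per member. Members were clustered with the Leiden algorithm in scanpy 1.11.5 (igraph flavor) on 1000 variable genes, 15 principal components, 15 neighbours and resolution 0.5. Mitochondrial genes, haemoglobin genes and those overlapping ribosomal RNA were dropped there.

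The genes named were the class markers, the 25 with the highest ratio to other barcodes, the 15 highest and 15 lowest ratios of E4 to E3, the 15 most variable, and abundant or 1.5-fold different members of each of the 39 lists. The members and the lists were chosen with earlier results of these data known. Simulated data for E4 against E3 in 3972 genes held Poisson counting error only. There the counting recovered 99.5% of 200 genes changed 2-fold, and 95.3% of intervals held the true ratio. Spread between members, mice or libraries and changes of 1.5-fold were not simulated. Gene positions are from GENCODE on GRCm38. A few genes are not reported here.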

Additional observations from a re-analysis of the deposited data

Results flagged for a closer look

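Above the upper limit of 50000 UMIs, 29 E3 and 55 E4 barcodes reached the limit of the 4 choosing genes and were in no comparison. They are 29 of 33 and 55 of 57 such barcodes, with a median of 19.1% and 15.7% Ttr, and 15 and 36 of them also reached a limit of another cell type.

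A few genes had log2 ratios of opposite sign in the choroid plexus and in another class, and these differences were not tested. Bst2 had a log2 ratio of E4 to E3 of 0.61 in fibroblasts, against -0.91 in the choroid plexus. The haemoglobin genes Hbb-bs, Hba-a1 and Hba-a2 had 0.64, 1.21 and 1.17 in astrocytes, against -3.94, -3.45 and -2.98.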

How the results depend on the processing

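Over 17 alternatives, some chosen after seeing the data, the log2 ratio of Ifitm3 ran from -1.84 to -1.49, that of Bst2 from -1.21 to -0.59 and that of Ifi27 from -0.65 to -0.51, with Ifi27 under 1.5-fold when the limits for other cell types were not applied (-0.51) or no upper UMI limit was set (-0.58). Of 47 genes at least 1.5-fold apart, 18 stayed so in every setting that gave them a value. The median over all genes ran from -0.02 to 0.06. The cause of the shifts below was not tested.

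The E3 share of 3.23% became 2.71% with at least 10 marker UMIs, 4.36% without the limits for other cell types, 4.98% with at least 4000 UMIs and 2.53% without clusters 1 and 3. The E4 share of 2.81% became 2.45%, 3.59%, 4.04% and 2.07% in these settings, and 2.28% with at most 25000 UMIs. The 124 class genes became 206 without the limits for other types and 62 without clusters 1 and 3. The 25 genes higher in E4 became 14 without clusters 1 and 3, 62 with CPM averaged over members, 385 with thinned counts, 239 at a floor of 50 UMIs, 3 at a floor of 500, 165 after free RNA was subtracted and 0 at 2-fold. The 22 lower genes became 197 without the limits for other types, 35 with averaged CPM, 227 with thinned counts, 163 and 12 at floors of 50 and 500, 97 after free RNA was subtracted and 7 at 2-fold. The nuclear oxidative phosphorylation genes that were lower went from 63 to 39 of 81 without the limits for other types, and the lower interferon genes from 5 of 6 to 13 of 14 at a floor of 50. The 5 clusters became 9 without the limits for other types and 10 at resolution 1.0. Mal turned to -0.44 with at least 10 marker UMIs, Rtn1 to -0.065 without the limits for other types and -0.38 with thinned counts, Kif21a to -0.0032 without the limits for other types and Dnajc5 to -0.0047 with thinned counts.

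No paired analysis was possible because each genotype has 1 library, and for the same reason no replicate was left out. Hba-a1 gave no ratio once barcodes were thinned. Below the floor of 200 UMIs, only Gbp3 and the interferon genes at a floor of 50 were compared.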
